A study of Mus musculus with 3 samples.

Results

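The piRNA pathway genes followed here were the 10 genes Piwil1, Piwil2, Piwil4, Tdrd1, Tdrd6, Tdrd9, Mael, Mov10l1, Ddx4 and Asz1, out of 36593 genes listed over 3 mouse testis libraries. They were listed by name and not by a rule on their counts, though earlier results of these data were known. They were read in 11307 germ cells, of which 9412 fell in a named stage. Each library was made by droplet-based single-cell RNA sequencing of testis cells from C57BL/6 mice. The study's methods give 3 mice per group, but the counts do not tie cells to mice, so each library was taken as 1 sample. The Tomato-negative library came from mice aged 8 weeks that carried Ddx4-creER and R26tdTomato and had received tamoxifen, from which Tomato-positive germ cells had been sorted away, and its germ cells are those that the sort left behind. The control library came from Scf fl/fl mice aged 6 weeks, and the cKO library from mice of the same age that carried Amh-cre besides Scf fl/fl, in which Cre acts in Sertoli cells and removes the floxed Scf (Kitl) gene there. Both of these carried the floxed allele, and both had been sorted to deplete haploid spermatids. The comparisons ask when in spermatogenesis each gene of the pathway is read out, and what the germ cells that remain in the cKO testis express of it.

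piRNAs are small RNAs that are bound by PIWI proteins and direct the silencing of transposons in germ cells. In the mouse testis the PIWI proteins are Piwil2 (MILI), Piwil4 (MIWI2), which acts in the nucleus of gonocytes, and Piwil1 (MIWI), which loads the abundant pachytene piRNAs of spermatocytes and round spermatids. Around them stand the RNA helicases Mov10l1, Ddx4 and Tdrd9, the Tudor scaffolds Tdrd1 and Tdrd6, the germ-granule protein Mael and the mitochondrial scaffold Asz1. In GENCODE vM21 (GRCm38) all 10 are protein-coding genes, among them Piwil1 at chr5:128702524-128755474 on the plus strand, Piwil2 at chr14:70372477-70429383 and Piwil4 at chr9:14696230-14740733, both on the minus strand.

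Levels are given as CPM, the UMIs (unique transcript molecules) of a gene per 1e6 UMIs summed over the cells of a stage in 1 library. Bracketed ranges are exact 95% Poisson intervals, or for ratios exact conditional intervals, and cover counting error only. With 1 library per group there is no replicate, no test was made, and differences between libraries cannot be told apart from differences between genotypes. Stages are called by clusters that were named from marker genes and were formed without the pathway genes. The named germ cells numbered 3233 in the Tomato-negative, 3926 in the control and 2253 in the cKO library. In the control they divided into 412 undifferentiated and 1095 differentiating spermatogonia-like cells, 1172 early meiotic prophase-like and 894 pachytene-like spermatocytes, and 257 round and 96 elongating spermatid-like cells. The cKO held 1220, 905, 93, 16, 9 and 10 cells of these stages, so its pachytene and later cells were too few to compare. The split of its spermatogonia-like cells depended on the clustering. Without integration of the libraries, 2311 cKO cells fell in the undifferentiated and 96 in the differentiating stage. The 905 cells are thus not read as the size of a differentiating pool in the cKO. The study itself reports that differentiating spermatogonia are depleted in the cKO testis. Median UMIs per germ cell were 12990 in the Tomato-negative, 6974 in the control and 15980 in the cKO library. Kitl stood at 123, 58.2 and 144 CPM in the somatic cells of the Tomato-negative, control and cKO libraries, which is no check of the deletion, since it acts in Sertoli cells and a 3′ tag need not lie in the deleted part.

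Counts in somatic cells gave the background. Piwil1 read 8.09 CPM in the Tomato-negative, 14.8 in the control and 0.242 in the cKO somatic cells, and Tdrd6 read 17.1, 18.7 and 0.524. The spermatocyte enzyme gene Ldhc moved in the same way, with 234 CPM in Tomato-negative, 145 in control and 5.52 in cKO undifferentiated spermatogonia-like cells. Counts of these spermatocyte genes in cells that should lack them were thus high in the first pair of libraries and low in the cKO library, and low values of pachytene genes are read against them below.

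In the control library the members split by stage. Pooling undifferentiated and differentiating cells as spermatogonia, 3 of 10 members were at least 2-fold higher in spermatogonia than in pachytene cells with an interval that left out 1, and 48.8% of the 18165 genes with enough counts were so. Another 3 members were at least 2-fold higher in pachytene cells, against 26.4% of genes. The median ratio of spermatogonia over pachytene was 0.808 for the members and 1.96 over all genes. The share of members called was below that of all genes on the spermatogonial side and near it on the pachytene side, so what follows describes the single genes and not a property of the list.

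The spermatogonial members were Piwil4, Mov10l1 and Asz1. Piwil4 read 27.3 CPM (22.8 to 32.5) in undifferentiated and 2.57 (1.67 to 3.80) in differentiating control cells. It had no count in early prophase cells, where 3 counts would be 0.549 CPM, and 2 counts in all pachytene cells. Its level in undifferentiated cells was 31.4 CPM in the Tomato-negative and 25 in the cKO library, so the 3 libraries lay close together there. In cells thinned to 2000 UMIs, 5.04% of control undifferentiated cells had a Piwil4 UMI (21.8% unthinned, median 11330 UMIs), against 0.349% of somatic cells (0.615% unthinned, median 4972 UMIs). Asz1, which holds piRNA factors at the mitochondrial surface, read 122 CPM in undifferentiated, 50.4 in differentiating and 22.2 in pachytene cells, a spermatogonia over pachytene ratio of 3.32 (3.03 to 3.63). Mov10l1, the helicase that binds piRNA precursors, read 552, 431 and 616 CPM in undifferentiated, differentiating and early prophase cells and 97.3 in pachytene cells, a ratio of 4.84 (4.65 to 5.03).

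The pachytene members were Piwil1, Tdrd6 and Mael. Piwil1 read 19.1 CPM in undifferentiated and 15.7 in differentiating cells, near the somatic background of 14.8, then 27.8 in early prophase and 433 CPM (426 to 439) in pachytene cells. In round spermatid-like cells it was back at 20.4. Thinned to 2000 UMIs, 48.7% of pachytene cells had a Piwil1 UMI (99.6% unthinned, median 47000 UMIs), against 2.56% of somatic cells (5.84% unthinned). Tdrd6, a scaffold of the chromatoid body, read 10.1, 9.37 and 14.1 CPM in the 3 earlier stages, all below its somatic background of 18.7, so no expression was read from them. It reached 440.1 CPM in pachytene and 245 in round spermatid-like cells, and so stayed high later than Piwil1. Mael was present throughout, at 311 and 182 CPM in the spermatogonial stages and 292 in early prophase, and was at 770.2 in pachytene and 553 in round spermatid-like cells.

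The other 4 members stayed within 2-fold between the pooled spermatogonia and the pachytene cells of the control. Ddx4, the germ-cell helicase Vasa, read 414, 317, 405 and 664 CPM over the 4 stages up to pachytene and 434 in round spermatid-like cells. It was at 29.4 CPM in elongating cells, below the 56.5 of somatic cells. Piwil2 read 207, 122, 189 and 108 CPM over the 4 stages and 8.99 in round spermatid-like cells. Tdrd9, a helicase partner of Piwil4, read 83.2, 88.3, 57.8 and 79.5 CPM, and the first pair of these had overlapping intervals. Tdrd1, which binds Piwil2 in the cement between mitochondria, read 151 CPM in undifferentiated, 82.1 in differentiating, 26.3 in early prophase and 198 in pachytene cells.

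**Figure D1:**
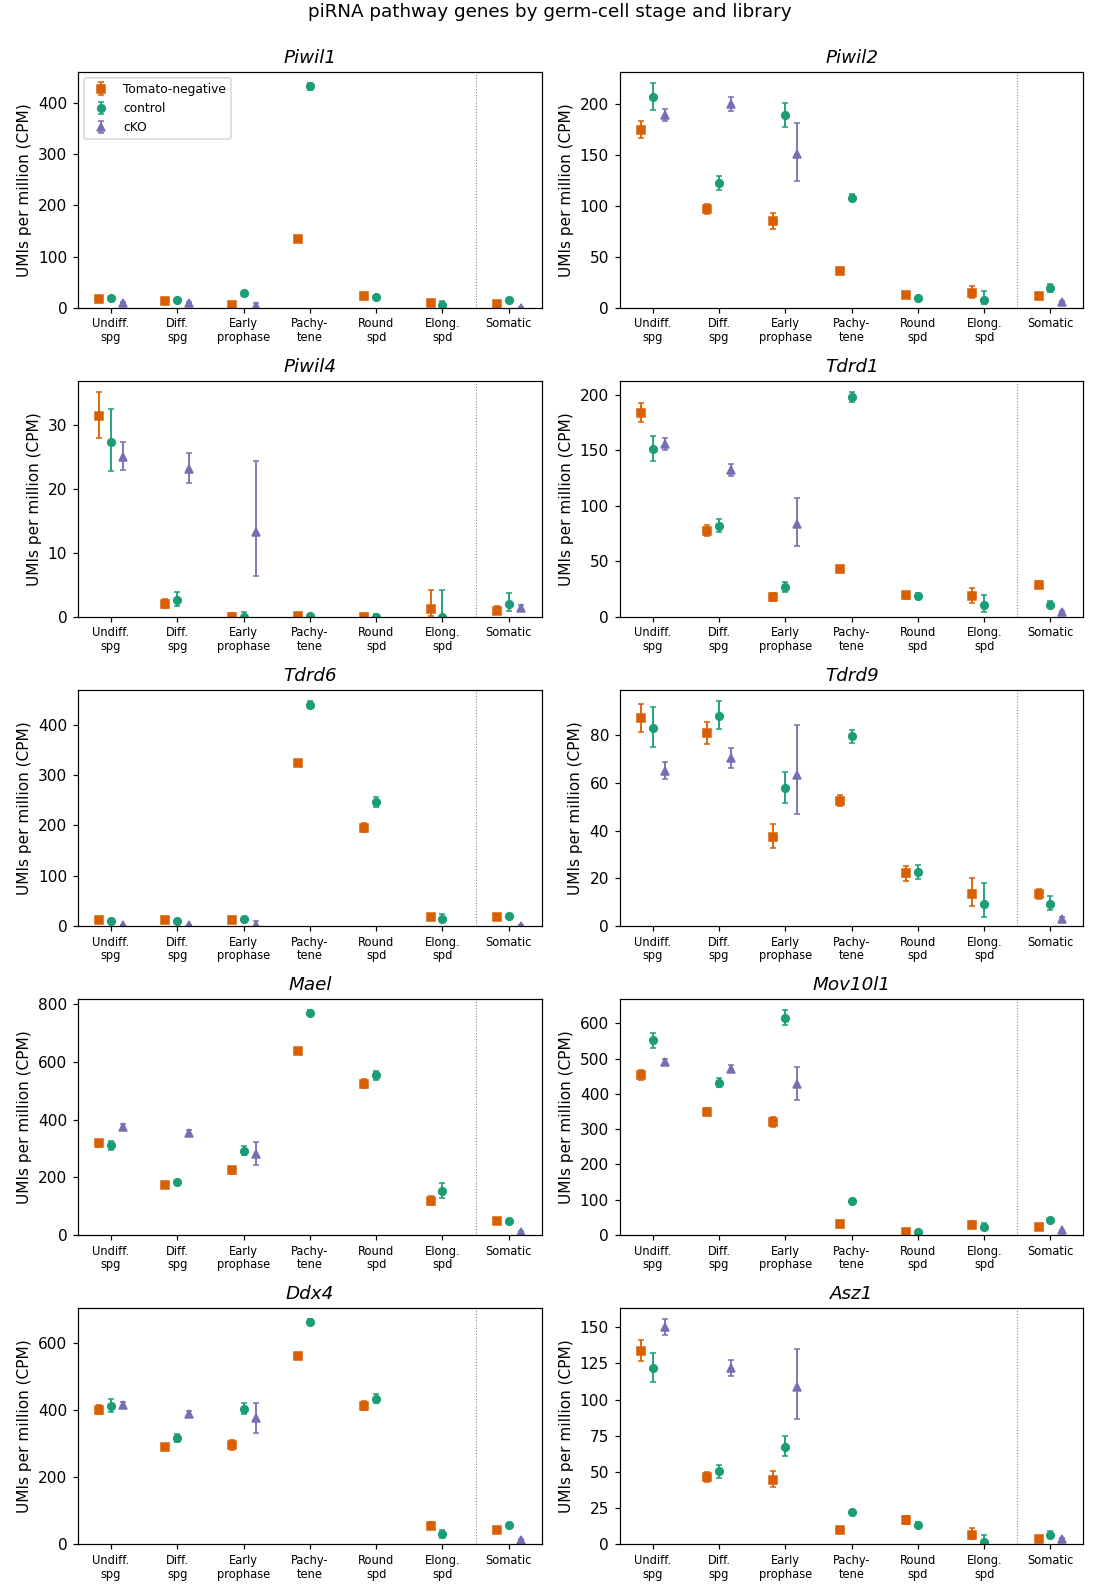
CPM (y axis, linear, from 0) of each member in the 6 germ-cell stages and in somatic cells (x axis) of the Tomato-negative (squares), control (circles) and cKO (triangles) libraries. Bars are exact 95% Poisson intervals and groups under 30 cells are not drawn. In the control, Piwil4 lies above its somatic level in undifferentiated spermatogonia, Piwil1 in pachytene cells, Tdrd6 in pachytene and round spermatid-like cells, and Ddx4 and Mael in every stage up to round spermatids.

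The stretch before the transcription start is printed for a pair of pachytene members and a pair of spermatogonial members, so that the genes with opposite courses can be compared. RefSeq promoters (GRCm38.p6) were found for 8 of the 10 members, Piwil2 and Tdrd6 having no entry. The 250 bases before the start site are given 5′ to 3′ on the strand of the gene, and capitals mark the MYB core AACNG or its reverse complement CNGTT, counted on both strands and with overlaps. Of 32851 promoters, 74.2% held at least 1 such match, and 7.03% held 4 or more.
Piwil1, chr5:128735996-128736245, plus strand: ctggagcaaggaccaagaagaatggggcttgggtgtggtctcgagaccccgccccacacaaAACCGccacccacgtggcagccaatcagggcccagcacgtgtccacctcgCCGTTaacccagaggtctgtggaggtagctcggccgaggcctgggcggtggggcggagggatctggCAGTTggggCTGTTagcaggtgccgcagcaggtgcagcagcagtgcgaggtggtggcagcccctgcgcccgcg
Mael, chr1:166238745-166238994, minus strand: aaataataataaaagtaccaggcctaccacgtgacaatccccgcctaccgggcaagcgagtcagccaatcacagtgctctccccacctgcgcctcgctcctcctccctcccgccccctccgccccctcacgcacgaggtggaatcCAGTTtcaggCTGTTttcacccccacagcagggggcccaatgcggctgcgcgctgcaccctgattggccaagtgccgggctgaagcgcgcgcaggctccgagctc
Piwil4, chr9:14740673-14740922, minus strand: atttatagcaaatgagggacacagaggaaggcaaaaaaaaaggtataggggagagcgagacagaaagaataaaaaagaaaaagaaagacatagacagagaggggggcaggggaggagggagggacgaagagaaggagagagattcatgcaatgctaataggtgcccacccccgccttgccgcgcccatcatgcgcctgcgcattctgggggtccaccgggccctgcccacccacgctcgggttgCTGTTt
Asz1, chr6:18109062-18109311, minus strand: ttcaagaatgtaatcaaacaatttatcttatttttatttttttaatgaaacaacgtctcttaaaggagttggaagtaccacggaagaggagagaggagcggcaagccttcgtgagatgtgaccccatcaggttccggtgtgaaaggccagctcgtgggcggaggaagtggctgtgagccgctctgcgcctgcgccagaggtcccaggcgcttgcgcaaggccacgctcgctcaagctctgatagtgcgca
Piwil1 held 4 matches, Mael 2, this Piwil4 promoter 1 and Asz1 none, and Mov10l1, a spermatogonial member, held 2. A second Piwil4 start site, not printed, held 3 matches. Of all promoters 42.02% held 2 or more matches and 19.28% held 3 or more. The matches are a description of the letters only. Mybl1, which encodes the MYB factor of spermatocytes, read 11.4 and 6.39 CPM in control undifferentiated and differentiating cells, 212 in early prophase and 173 in pachytene cells.

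Within the pachytene-like cells of the control the members stood at stepped levels. The 4 clusters of this stage can be ordered by the synaptonemal complex gene Sycp1, at 1037, 307, 163 and 85.6 CPM in clusters 13, 18, 6 and 8, and by the late spermatocyte cyclin Ccna1, at 11.6, 48.5, 319 and 374. Clusters 13, 18 and 8 came almost wholly from the control library, with 253, 140 and 429 of its cells against 7, 1 and 15 of the Tomato-negative library. A feature of the control library thus cannot be told apart from a cell state. Piwil1 read 1108, 658, 137 and 124 CPM along this order. Cluster 13 exceeded cluster 8 by 8.96-fold (8.59 to 9.36) for Piwil1 and by 12.5-fold (11.7 to 13.4) for Tdrd1, which read 561 CPM against 44.9. The excess was 6.43-fold for Mov10l1, 6.18-fold for Piwil2, 5.83-fold for Asz1 and 3.05-fold for Tdrd9. Mael, at 1.53-fold, and Ddx4, at 1.16-fold, differed little. Tdrd6 ran the other way, with 264 CPM in cluster 13 and 482 in cluster 8.

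The division therefore depended on which pachytene cells were taken. Against cluster 13 alone, spermatogonia were at least 2-fold higher for 1 member, Piwil4 (45.9% of 16059 genes), and at least 2-fold lower for 5 (22.6% of genes). Against cluster 8 alone they were higher for 5 members (53.9% of 17179 genes), with Piwil2 (3.25-fold) and Tdrd1 (2.33-fold) joining Piwil4, Mov10l1 and Asz1, and lower for 3 (25.9% of genes). Against cluster 6 alone they were higher for 5 members (46.4% of 15409 genes) and lower for 3 (22.4% of genes). Against cluster 18 alone Piwil4, Mov10l1 (5.45-fold) and Asz1 (2.75-fold) stayed at least 2-fold higher in spermatogonia. Piwil1, Tdrd6 and Mael stayed at least 2-fold lower, joined by Tdrd1 (ratio 0.375).

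A similar step lay inside early prophase. Cluster 0 carried Stra8 at 922 and Meiob at 150 CPM in the control, and cluster 9 carried them at 50.7 and 356, with Sycp1 at 3434. Of the 376 cells of cluster 9, 325 came from the control, 20 from the Tomato-negative and 31 from the cKO library. A feature of the control library therefore cannot be told apart from a cell state here either. From cluster 0 to cluster 9, Mov10l1 went from 318 to 1266 CPM, the highest of all its named clusters, a ratio of 3.98 (3.70 to 4.27). Piwil2 went from 88.8 to 407 CPM, also its highest, a ratio of 4.59 (4.02 to 5.24). The ratio was 4.45 for Tdrd9, 4.81 for Tdrd1 and 2.73 for Asz1, but 1.35 for Ddx4 and 1.36 for Mael. Piwil4 had no count in either cluster of the control. Piwil1 stood at 17.1 and 51.3 CPM, so its main rise came after these cells.

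**Figure D2:**
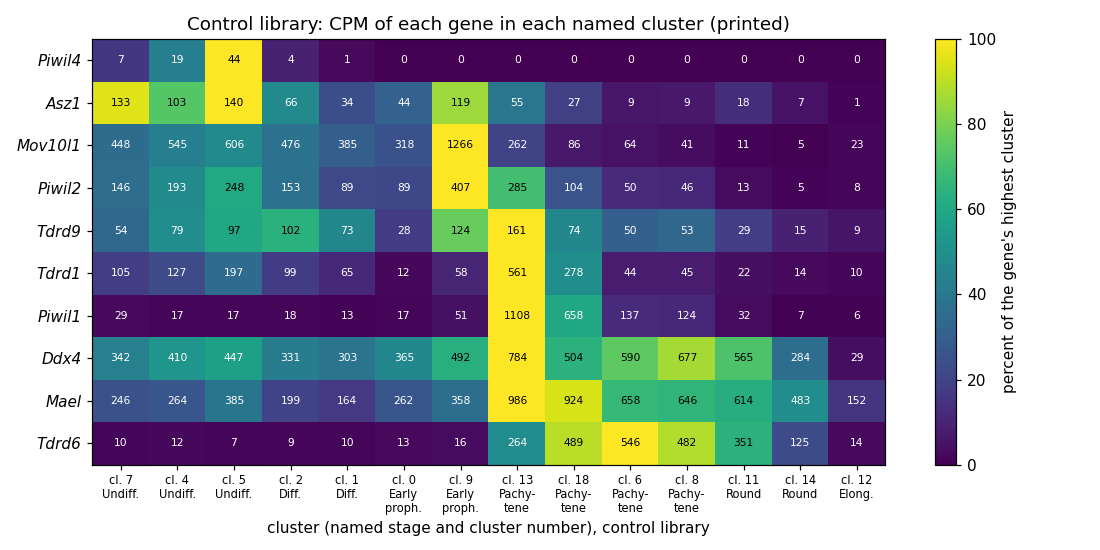
CPM (printed numbers) of the 10 members (rows) in the 14 named germ-cell clusters with at least 20 cells in the control library (columns, in the order of their stage markers). Colour gives each value as a percent of the same gene's highest cluster. The highest cluster moves from cluster 5 for Piwil4 and Asz1 to cluster 9 for Mov10l1 and Piwil2, cluster 13 for Tdrd9, Tdrd1, Piwil1, Ddx4 and Mael, and cluster 6 for Tdrd6.

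A pair of intermediate clusters could not be named, because markers of differentiating spermatogonia led cells that scored highest for early prophase. Cluster 3 held 755 control cells and read Mov10l1 at 396 and Piwil2 at 118 CPM, close to the differentiating cells. Cluster 10 held 249 control cells, carried Ldhc at 1713 CPM, and read Tdrd6 at 105 and Piwil1 at 53.7 CPM.

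The Tomato-negative library gave a partial repeat of the division. Spermatogonia were at least 2-fold higher than pachytene cells for 5 members (56.1% of 19455 genes) and at least 2-fold lower for 3 (22.8% of genes). The median ratio was 2.20 for the members and 2.59 over all genes. The same 6 genes as in the control kept their side, with ratios of 153 for Piwil4, 12.1 for Mov10l1 and 8.20 for Asz1, and of 0.108 for Piwil1, 0.0345 for Tdrd6 and 0.364 for Mael. Piwil2, at 3.58-fold, and Tdrd1, at 2.81-fold, were the added members. Most Tomato-negative pachytene cells, 471 of 494, lay in cluster 6, whereas 72 of 894 control cells did. The upper limit of 7500 genes left out 1147 Tomato-negative cells, against 148 control and 20 cKO cells. With no upper limit the pachytene cells numbered 1125 in the Tomato-negative and 1059 in the control library. The part of this uneven cut in the pachytene make-up and in the ratios between these libraries was not tested. Over all pachytene cells 5 of 9 members with enough counts were at least 2-fold lower in the Tomato-negative than in the control library (18.9% of 16416 genes) and none was 2-fold higher (8.10% of genes). Piwil1 read 135 CPM in the Tomato-negative library, a ratio to the control of 0.312, and Tdrd1 read 42.9, a ratio of 0.217. Between the cells of cluster 6 alone the ratios were 0.922 (0.813 to 1.05) for Piwil1 and 0.898 (0.719 to 1.14) for Tdrd1. Tdrd6 (0.597), Piwil2 (0.658) and Mov10l1 (0.469) stayed below 1 within it.

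In undifferentiated spermatogonia-like cells the cKO library differed little from the control. Only 1 member, Tdrd6, was past 2-fold and lower, and no member was past 2-fold and higher. Of 16215 genes 5.75% were at least 2-fold lower and 3.55% at least 2-fold higher, and the median ratio of cKO over control was 0.915 for the members and 0.958 over all genes. Tdrd6 read 0.982 CPM in the cKO against 10.1 in the control, but the control value was below the 18.7 of its own somatic cells, so no difference was read from it, and the part of free RNA in it was not tested. Piwil1, at 9.87 against 19.1 CPM (ratio 0.516, 0.400 to 0.670), had a control level near background too. With the somatic level of each library subtracted, its ratio turned to 2.24.

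The members well above background kept close to the control in these cells. Ddx4 read 417 CPM in the cKO and 414 in the control, a ratio of 1.01 (0.960 to 1.06). Piwil4 read 25 and 27.3 CPM (0.916, 0.753 to 1.12), and Tdrd1 155 and 151 (1.03, 0.948 to 1.12). Over the 10 members the interval lay above 1 for 2 (10.4% of 16215 genes) and below 1 for 5 (19.7% of genes), Tdrd6 and Piwil1 among the latter. The others were Mael (1.21) and Asz1 (1.23) above 1, and Piwil2 (0.914), Mov10l1 (0.889) and Tdrd9 (0.784) below it. The Tomato-negative over control ratios of the same 5 genes in this stage were 1.02 for Mael (0.959 to 1.09), 1.10 for Asz1 (0.993 to 1.21), 0.844 for Piwil2, 0.823 for Mov10l1 and 1.05 for Tdrd9 (0.929 to 1.19), and that of Tdrd1 was 1.22. The Tomato-negative library had no member past 2-fold, with 7.16% of genes at least 2-fold higher and 1.28% lower. The stage was not made up alike, as Kit read 12.2 CPM in the cKO, 74.1 in the control and 93.9 in the Tomato-negative cells, and Gfra1 read 71.2, 39.5 and 45.5.

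Differentiating spermatogonia-like cells could not be matched between the cKO and control libraries by the integrated clusters. The 905 cKO cells of this stage read the receptor gene Kit at 39.3 CPM, against 175 in the control, and the stem-cell gene Gfra1 at 14.9, against 0.103. They lay mainly in cluster 2 (698 cells), while the control cells lay in clusters 1 and 2 (640 and 455). As labelled, 2 members were past 2-fold and higher in the cKO (18.7% of 16171 genes) and 1 was lower (14.8% of genes), with a median ratio of 1.42 for the members and 0.955 over all genes. Piwil4 read 23.1 CPM against 2.57, a ratio of 8.99 (6.00 to 14.1), and Asz1 122 against 50.4, a ratio of 2.42 (2.19 to 2.68). Mael (1.95), Piwil2 (1.64) and Tdrd1 (1.61) were above 1, and Tdrd6 was lower (0.131), with a control level again below that of somatic cells. The cKO levels of Piwil4, Asz1, Mael and Piwil2 in this stage, at 23.1, 122, 355 and 200.3 CPM, lay near those of its own undifferentiated cells, at 25, 150.0, 375 and 189.

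Clustering without integration turned these ratios. It left 96 cKO cells in the differentiating stage, with Kit at 171 CPM against 165 in the 1883 control cells and no Gfra1 count. In them Piwil1 and Tdrd6 stayed below 1 and the other members moved to its other side. The interval of Piwil4, Tdrd1, Tdrd9, Mov10l1 and Asz1 held 1 there. No share of all genes is given beside these moves, so they describe the single genes only. Piwil4 read 2.14 CPM against 3.46 (ratio 0.617, 0.0727 to 2.35), Asz1 51.3 against 55.1 (0.931, 0.680 to 1.25) and Mov10l1 403 against 439 (0.918, 0.825 to 1.02), and none of these intervals left out 1. The study reports Piwil2 as downregulated in differentiating spermatogonia of the cKO in these samples, so its values here are no independent result. Its ratio of 1.64 in the integrated clusters lay on the other side from that report. Without integration Piwil2 read 94.0 against 130 CPM (0.725, 0.578 to 0.898). Mael, at 0.795 (0.666 to 0.942), and Ddx4, at 0.859 (0.757 to 0.971), were also below 1. In that grouping 2.26% of 14060 genes were at least 2-fold higher in the cKO and 13.9% at least 2-fold lower. The Tomato-negative cells of that grouping were below the control as well for Piwil2 (106 against 130 CPM), Mov10l1 (359 against 439) and Ddx4 (298 against 336). Mael read 186 against 188 CPM in them.

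**Figure D3:**
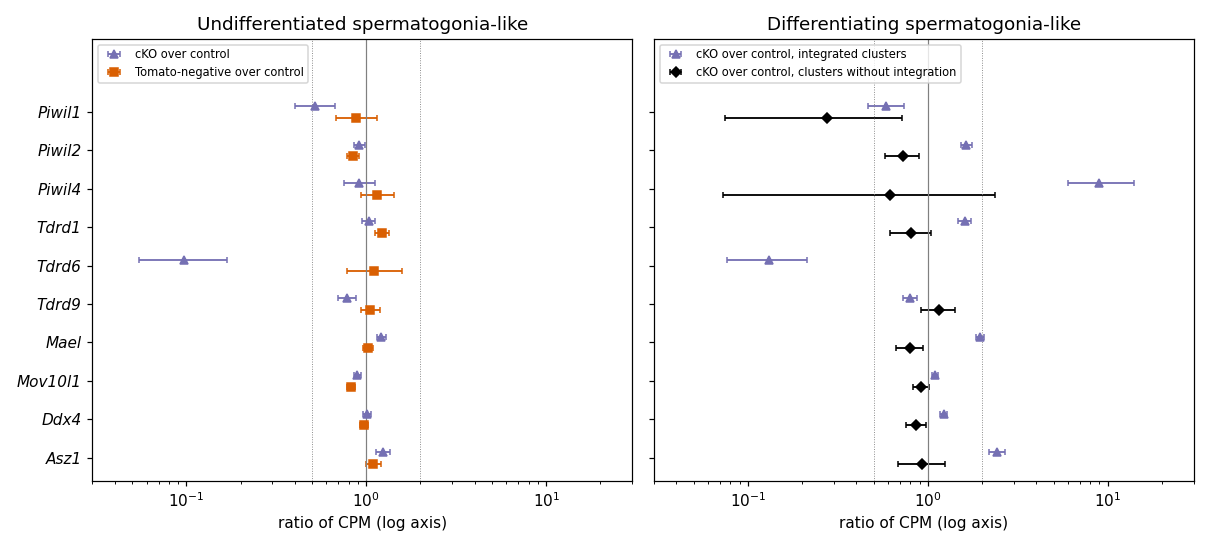
Ratio of CPM for each member (log axis, dotted lines at 2-fold) in undifferentiated (left) and differentiating (right) spermatogonia-like cells, with exact 95% conditional intervals. On the left cKO over control (triangles) and Tomato-negative over control (squares) lie near 1 but for Tdrd6 and Piwil1 in the cKO. On the right the integrated clusters (triangles) put Piwil4 at 8.99 and Asz1 at 2.42, and the clusters without integration (diamonds) put them at 0.617 and 0.931.

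Early prophase-like cells of the cKO numbered 93, of which 62 lay in cluster 0 and 31 in cluster 9. As labelled, 1 of 9 members with enough counts was past 2-fold and higher (14.4% of 11351 genes) and 2 were lower (14.0% of genes). Tdrd1 read 83.4 CPM against 26.3 (ratio 3.17, 2.32 to 4.28), Piwil1 2.65 against 27.8 and Tdrd6 2.65 against 14.1, each of the last pair from 2 counts. Mov10l1 was below the control, at 427 against 616 CPM (0.694, 0.617 to 0.778). The Tomato-negative cells of this stage were below the control too, with Mov10l1 at 320, Piwil2 at 84.7 and Piwil1 at 6.04 CPM. Their interval against the control lay below 1 for 8 of 9 members (26.1% of genes) and above 1 for 0 (24.3%). Of these 725 cells 705 lay in cluster 0, where their Mov10l1 ratio to the control was 0.9225 (0.855 to 0.995). Piwil4, with no count in the control at this stage, had 10 counts in the cKO, and the undifferentiated marker Gfra1 read 11.9 CPM there against none. Inside cluster 0, where cKO cells had no Gfra1 or Piwil4 count, Mov10l1 read 356 against 318 CPM (1.12, 0.92 to 1.35) and Tdrd1 17.9 against 12.0 (1.49, 0.52 to 3.51). Inside cluster 9, which held all 10 Piwil4 counts and Gfra1 at 21.4 CPM in the cKO, Mov10l1 read 485 against 1266 CPM (0.383, 0.330 to 0.442), Piwil2 216 against 407 (0.531, 0.422 to 0.661) and Tdrd1 135 against 57.7 (2.35, 1.66 to 3.28). The part of the cells with Gfra1 counts in these cluster 9 values was not tested. Clustering without integration left 58 cKO cells in early prophase, with no Gfra1 or Piwil4 count. Against the control cells of that grouping they read Mov10l1 at 427 against 624 CPM, Piwil2 at 115 against 187 and Tdrd1 at 18.2 against 27.4. Stra8 read 1045 against 645 CPM there, so that stage was not made up alike either. The 16 pachytene-like cells of the cKO read Piwil1 at 187 CPM, Tdrd6 at 445 and Mael at 644, shown as values only.

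The other pathway genes, 18 in number, also lay on both sides. In the control, 6 were at least 2-fold higher in spermatogonia, 8 in pachytene cells and 4 were neither, with a median ratio of 0.820, beside the 48.8% and 26.4% of all genes given above. The spermatogonial side held Tex15, which acts with Piwil4 in silencing, at 862 against 11.1 CPM, Fkbp6, a chaperone cofactor in piRNA loading, at 470.2 against 67.8, and Morc1 at 43.3 against 2.95. The pachytene side held Gtsf1, a cofactor of PIWI slicing, at 119 against 631 CPM, and Mybl1 at 8.01 against 173. In cKO undifferentiated cells none of the 18 was past 2-fold of the control (3.55% of all genes higher and 5.75% lower), and their median ratio was 1.08. In the integrated differentiating cells 6 were at least 2-fold higher (18.7% of all genes), among them Spocd1 at 19.8 against 0.515 CPM and Morc1 at 100.1 against 17.1, and none was lower (14.8% of all genes). Spocd1 and Morc1 read 16.8 and 111 CPM in the undifferentiated cells of the cKO.

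Genes with the most similar course were sought for the 3 PIWI genes over 15 stage and library values, among 19374 genes. The points share libraries and depth, so the coefficients are descriptions. Piwil4 ran closest to 2900041M22Rik (Pearson's r 0.996), Gm12216 (0.994) and the cyclin gene Ccnd2 (0.994). Piwil2 ran closest to Dennd4c (0.985), Srek1 (0.981) and Ddx39 (0.979), and Piwil1 to Gm21284 (0.965), 4933412L11Rik (0.952) and 1700026J14Rik (0.9495).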

How the data were processed

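Droplet 3′ libraries were processed by the authors with Cell Ranger 2.1.1 on GRCm38 and analysed with Seurat 3.1, per the labels. The deposited files hold UMI counts per gene and cell, whole numbers with no normalization, as their values show. The merged file also holds the 6264 control cells and 149 barcodes of the cKO library, and only its 7626 barcodes ending in _1 were taken as the Tomato-negative library. The libraries hold 195380762, 90453018 and 68602272 UMIs in 7626, 6264 and 7252 cells, and barcode sequences that coincide between these separate libraries number 9 for Tomato-negative and control, 13 for Tomato-negative and cKO, and 15 for control and cKO. A cell was kept if it had between 200 and 7500 genes and no more than 10% of UMIs from mitochondrial genes (the study's methods state 3500 genes, used as an alternative).

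Germ clusters were separated by marker lists that leave out Ddx4 (Python 3.11.15, scanpy 1.11.5), leaving 3631, 5000 and 2676 germ cells. These were integrated and clustered with Seurat 5.3.0 in R 4.3.3 (2000 variable genes without the pathway genes, 25 components, resolution 1), giving 22 clusters, of which 15 were named by the highest marker score. A cluster stayed unnamed where another class led its top 10 genes or where under 3 of its markers were detected. The same held where its depth was low and none of its markers was among those top genes. Clusters of doublets with somatic cells were unnamed, and doublets called by Scrublet (4.29, 3.35 and 4.87% of cells) stayed in except in 1 alternative. Counts were summed per stage and library (at least 30 cells, at least 20 counts over both groups, 2-fold). The ratio intervals were checked on simulated counts. Genes named are the members, the 18 other pathway genes and the 3 genes most like each PIWI gene (Pearson's r of log2(CPM + 1), genes of at least 100 counts). Members, lists and rules were chosen with earlier results of these data known. Gene symbols are those of the files. By GENCODE vM21 no gene on the same strand overlaps the 3′ end of a member.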

Additional observations from a re-analysis of the deposited data

Results flagged for a closer look

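Piwil2 and Mov10l1 lay on both sides of 1 in the cKO over control comparison, depending on the stage. The Piwil2 ratio was 1.64 in the integrated differentiating spermatogonia-like cells, 0.914 in undifferentiated cells and 0.799 in early prophase cells. The Mov10l1 ratio was 1.09 in differentiating, 0.889 in undifferentiated and 0.694 in early prophase cells. Early prophase cells of the Tomato-negative library also read below the control, with Piwil2 at 84.7 against 189 CPM and Mov10l1 at 320 against 616. All 6 cKO over control intervals left out 1, but they cover counting error only. The interval lay above 1 for 32.4% of all genes in differentiating cells. It lay below 1 for 19.7% in undifferentiated and 22.4% in early prophase cells. The difference between stages was not tested, since each group is 1 library. The ratios above 1 were those of the integrated differentiating stage, and without integration both fell below 1, to 0.725 and 0.918. The cKO cells read more Gfra1 than the control cells in each of these integrated stages, so this does not set that stage apart. The part of stage assignment in the difference was not tested further.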

How the results depend on the processing

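No paired analysis was possible because each group is 1 library, and for the same reason no library could be left out. In the control, between 8 and 10 of the 10 members kept their highest stage under every alternative. Keeping the highest stage does not mean that levels held, as some control ratios of spermatogonia over pachytene cells changed side, given below. Of the 23 cKO over control ratios with an interval that left out 1, 13 kept their side without integration and between 17 and 23 under the other alternatives, where with no upper limit on genes the early prophase stage held too few cKO cells to count. The counts of kept stages and sides have no share over all genes beside them. They do not show whether the members held better or worse than other genes.

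With 3500 genes as the limit, 1 member was higher in Tomato-negative spermatogonia (28.7% of all genes) and 0 were past 2-fold in undifferentiated cKO cells (7.25%). That count of members past 2-fold was 2 without integration (11.9% of all genes), with doublets removed (9.40%), with stages assigned per cell (13.4%) and with the mean of CPM per cell (11.3%), Piwil1 joining Tdrd6. It was 5 in differentiating cells with the somatic level subtracted (37.8%). Chosen after seeing the data, single pachytene clusters gave 5 control members higher in spermatogonia for cluster 6 (46.4% of all genes) and for cluster 8 (53.9%), and 1 for cluster 13 (45.9%), which also gave 5 higher in pachytene cells (22.6%).

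Some ratios changed side. With 3500 genes, spermatogonia over pachytene ratios became 0.720 for Piwil2 and 0.819 for Tdrd9 in the control, and 0.753 and 0.724 in the Tomato-negative library. The cKO over control ratios became 1.10 for Tdrd9 and 0.949 for Asz1 in undifferentiated cells, 0.842 for Mov10l1 and 0.831 for Ddx4 in differentiating cells, and 0.162 for Tdrd1 in early prophase cells. Without integration the differentiating ratios became 0.725 for Piwil2, 0.617 for Piwil4, 0.809 for Tdrd1, 1.15 for Tdrd9, 0.795 for Mael, 0.918 for Mov10l1, 0.859 for Ddx4 and 0.931 for Asz1, and the early prophase ratios 0.664 for Tdrd1 and 0.908 for Asz1. In early prophase cells Tdrd1 also became 0.396 with germ clusters taken by Ddx4 and Tnp1 and 0.645 with stages per cell, and Asz1 became 0.814 and 0.749 under these, 0.894 with pathway genes among the variable genes and 0.968 with doublets removed. Mov10l1 became 0.942 in differentiating cells with stages per cell. Tdrd9 in control spermatogonia over pachytene became 0.799 in thinned cells and 0.970 with the mean of CPM per cell. With the somatic level subtracted, Piwil1 became 2.24 in undifferentiated and 10.8 in differentiating cells. The cause was not tested, except that the 3500 limit leaves fewer and shallower cells (107 cKO undifferentiated cells).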
